A study of Mus musculus with 9 samples.

Results

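The genes of MHC class II antigen presentation were followed through RNA sequencing of BeCon tumor cells, the mouse ovarian tumor model of the series. The 10 genes are H2-Aa, H2-Ab1, H2-Eb1, Cd74, H2-DMa, H2-DMb1, Ciita, Rfx5, Rfxap and Rfxank, taken by gene name from a table of 48230 genes, and all 10 were found. Values are FPKM, read fragments divided by transcript length and by the fragments mapped in the library, a scale on which levels of different genes can be set side by side. There were 4 libraries of BeCon cells from B6 mice treated with YKL-05-099, an inhibitor of the salt-inducible kinases, 1 library of BeCon cells grown in culture without replicate, and 4 libraries from B6 mice given the vehicle. The cells of the 8 mouse libraries came from ascites and had been sorted as viable cells negative for the leukocyte antigen CD45 and positive for MHC class I. The sources used here give no dose, duration of treatment or age of the mice. Whether 1 mouse or several went into a library is not stated, and p-values therefore rest on the spread among libraries, which may be technical. Treated and vehicle libraries carry different name prefixes, and a cage or batch behind the prefix, if there was one, cannot be told apart from treatment.

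The sorted cells carried tumor cell transcripts at a high level and some transcripts of blood cells. Of the 9 epithelial and mesothelial markers, the summed level was 1734 to 1781 FPKM after YKL-05-099, 1199.9 FPKM in culture and 1751 to 1825 FPKM after vehicle. Wt1, a transcription factor gene of mesothelium and ovarian tumors, stood at 513 ± 11.6 FPKM after YKL-05-099, 373 FPKM in culture and 557 ± 5.77 FPKM after vehicle (SD, n = 4 per mouse group), while Epcam and Pax8 stayed under 1 FPKM in every library. The FPKM summed to between 453169 and 482851 per library, at an approximate depth of 23000000 to 35000000 fragments, and 11421 to 11893 genes reached 1 FPKM. No library pair held identical values.

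MHC class II molecules are surface dimers of an alpha and a beta chain that show peptides from the endosomes to CD4+ T cells. The dimers assemble with the invariant chain, encoded by Cd74, which fills their groove and guides them to the endosome. There proteases cut the invariant chain down, and the H2-DM dimer exchanges the remaining fragment for peptide. Transcription of all these genes depends on CIITA, a coactivator that does not bind DNA itself and docks on the RFX complex (RFX5, RFXAP and RFXANK), which sits with CREB and NF-Y on a conserved pair of promoter elements called the X and Y boxes. Dendritic cells, macrophages and B cells express class II constantly, and many other cell types do so after interferon gamma, which induces Ciita.

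The promoters of the class II genes are shown because their shared elements tie the genes to the regulators followed here. RefSeq promoter windows (GRCm38.p6, 250 bases before to 50 bases after the start site) were at hand for 6 of the 10 genes, H2-Aa, H2-Eb1, H2-DMa, H2-DMb1, Rfx5 and Rfxank. Each window below is written 5′ to 3′ on the strand of its gene, with an X box core and a Y box in capitals. H2-Aa lies on the minus strand (chr17:34287774-34288073), H2-Eb1 on the plus strand (chr17:34305617-34305916) and H2-DMb1 on the plus strand (chr17:34152941-34153240).
H2-Aa promoter: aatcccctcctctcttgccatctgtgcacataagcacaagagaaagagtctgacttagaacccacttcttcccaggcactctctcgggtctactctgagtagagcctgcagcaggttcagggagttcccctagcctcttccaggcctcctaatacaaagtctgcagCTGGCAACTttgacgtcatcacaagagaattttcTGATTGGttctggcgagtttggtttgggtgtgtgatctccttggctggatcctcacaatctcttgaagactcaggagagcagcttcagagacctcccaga
H2-Eb1 promoter: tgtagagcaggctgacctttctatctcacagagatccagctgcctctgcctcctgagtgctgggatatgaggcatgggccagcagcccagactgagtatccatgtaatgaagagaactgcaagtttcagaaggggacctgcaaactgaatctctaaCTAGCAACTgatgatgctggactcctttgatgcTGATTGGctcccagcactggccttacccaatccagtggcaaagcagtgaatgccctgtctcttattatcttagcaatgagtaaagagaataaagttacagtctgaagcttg
H2-DMb1 promoter: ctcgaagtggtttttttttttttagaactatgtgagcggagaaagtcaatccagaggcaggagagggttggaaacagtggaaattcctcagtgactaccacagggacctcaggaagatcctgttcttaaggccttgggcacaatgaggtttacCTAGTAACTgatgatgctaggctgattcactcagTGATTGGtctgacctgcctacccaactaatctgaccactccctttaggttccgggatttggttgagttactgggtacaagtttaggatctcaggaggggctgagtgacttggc
The letters searched were CTNGNAACT for the X box core and TGATTGG for the Y box, which holds the reverse complement of CCAAT, and these patterns were chosen after the class II sequences had been seen. On the gene strand CTNGNAACT occurs in 1.96% and TGATTGG in 4.01% of 32851 RefSeq windows of the same length, and on either strand in 4.1% and 7.82%. In the order X box core, then 5 to 40 bases, then Y box on the gene strand, both occur in 5 windows (0.0152%), and 3 of these belong to H2-Aa, H2-Eb1 and H2-DMb1. The bases between the elements number 25 in H2-Aa, 24 in H2-Eb1 and 25 in H2-DMb1. The H2-DMa, Rfx5 and Rfxank windows do not hold the arrangement, and both H2-DMa windows lie upstream of the locus given in the deposited table. The windows of H2-DMb2, H2-Oa, H2-Ob and H2-Eb2, class II genes outside the 10, hold TGATTGG and no CTNGNAACT when either strand is searched. The Rfx5 window does so too. Since the letters were chosen from class II sequences already seen, their absence does not show that a window lacks an X box.

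The 3 chain genes of classical class II molecules and Cd74 were abundant in the mouse libraries and absent or nearly so in culture. Set side by side per length, every one of the 8 mouse libraries had the same order of levels, with Cd74 highest, then H2-Aa, H2-Eb1 and H2-Ab1. Among the YKL-05-099 libraries the ranges of H2-Aa and H2-Eb1 overlapped, and those of the other neighbours in this order did not. Among the vehicle libraries every pair of neighbours overlapped in range.

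Cd74 had 220.1, 251, 222 and 170.4 FPKM in YKL-05-099 replicates 1 to 4, 0.184 FPKM in culture, and 268, 293, 216 and 532 FPKM in vehicle replicates 1 to 4. Vehicle replicate 4 was far above every other library, and the mouse groups overlapped. Cd74 averaged 216 ± 33.6 FPKM after YKL-05-099 and 327 ± 140.5 FPKM after vehicle (SD, n = 4 each), a log2 fold change of -0.52 (95% interval -1.06 to 0.01, limma adjusted p = 0.101). Throughout, a fold change is a difference in log2(FPKM + 1), which comes out too small for weakly expressed genes.

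H2-Aa encodes the alpha chain of the I-A molecule. It had 117, 134, 109.8 and 87.3 FPKM in YKL-05-099 replicates 1 to 4, was listed at 0 in culture, and had 157, 145, 122 and 293 FPKM in vehicle replicates 1 to 4. YKL-05-099 replicate 2 lay above vehicle replicate 3, so the groups overlapped by this pair of libraries. The log2 fold change of H2-Aa was -0.60 (95% interval -1.14 to -0.07), with an unadjusted limma p of 0.0298 and an adjusted p of 0.0646.

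H2-Ab1 encodes the partner of that chain, the I-A beta chain. Its level was 50.5, 61.5, 52.4 and 37.1 FPKM in YKL-05-099 replicates 1 to 4, 0.0265 FPKM in culture, and 55.9, 57.7, 42.1 and 117 FPKM in vehicle replicates 1 to 4. Apart from vehicle replicate 4 the groups shared a range, and the log2 fold change was -0.34 (95% interval -0.95 to 0.26, limma adjusted p = 0.327). H2-Eb1 encodes the beta chain of the I-E molecule, whose alpha chain gene is defective in B6 mice. It had 76.8, 98.2, 82.5 and 62.9 FPKM in YKL-05-099 replicates 1 to 4, 0.0483 FPKM in culture, and 96.3, 97.0, 73.3 and 194 FPKM in vehicle replicates 1 to 4. Its groups overlapped as well (log2 fold change -0.44, 95% interval -1.01 to 0.13, limma adjusted p = 0.192). The I-E alpha pseudogene entry H2-Ea-ps was listed at 0 in all 9 libraries. Class II chain genes resemble each other, so reads may be split between them, and the values of single chain genes are uncertain to that extent.

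The genes of the peptide-exchange dimer were lower in level than the chains and differed less between the mouse groups. H2-DMa had 9.12, 11.8, 10.1 and 8.36 FPKM in YKL-05-099 replicates 1 to 4, 0.486 FPKM in culture, and 11.3, 10.7, 8.15 and 20.6 FPKM in vehicle replicates 1 to 4. H2-DMb1 had 14.7, 16.4, 15.2 and 11.8 FPKM in YKL-05-099 replicates 1 to 4, 1.15 FPKM in culture, and 16.1, 13.7, 11.3 and 25.2 FPKM in vehicle replicates 1 to 4. In both genes only vehicle replicate 4 left the shared range upward. The log2 fold change was -0.27 for H2-DMa (95% interval -0.76 to 0.23, limma adjusted p = 0.349) and -0.13 for H2-DMb1 (95% interval -0.58 to 0.32, limma adjusted p = 0.628).

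Ciita, the class II coactivator gene on chromosome 16, was present at a low level in all mouse libraries. It had 1.49, 1.64, 1.32 and 1.10 FPKM in YKL-05-099 replicates 1 to 4, was listed at 0 in culture, and had 1.57, 1.41, 1.30 and 1.89 FPKM in vehicle replicates 1 to 4. The groups overlapped, and vehicle replicate 4 was again the highest library. The log2 fold change was -0.09 (95% interval -0.33 to 0.14, limma adjusted p = 0.513).

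The RFX genes, which many cell types express without class II, were present in culture too. Of the 3, 2 were called higher after YKL-05-099, where 28.0% of all genes tested were called higher. Rfxank had 7.83, 8.31, 8.46 and 8.40 FPKM in YKL-05-099 replicates 1 to 4, 9.44 FPKM in culture, and 7.01, 7.01, 7.25 and 7.40 FPKM in vehicle replicates 1 to 4. Every YKL-05-099 library lay above every vehicle library, and the log2 fold change was 0.18 (95% interval 0.07 to 0.29, limma adjusted p = 0.0180). Rfx5, which encodes the DNA-binding subunit, had 21.6, 17.3, 19.7 and 18.04 FPKM in YKL-05-099 replicates 1 to 4, 6.86 FPKM in culture, and 17.9, 14.1, 15.3 and 16.0 FPKM in vehicle replicates 1 to 4. Its groups overlapped, since YKL-05-099 replicate 2 lay below vehicle replicate 1, and the log2 fold change was 0.26 (95% interval 0.07 to 0.45, limma adjusted p = 0.0298). Rfxap had 17.4, 15.9, 16.9 and 15.4 FPKM in YKL-05-099 replicates 1 to 4, 20.8 FPKM in culture, and 15.5, 16.6, 17.6 and 15.2 FPKM in vehicle replicates 1 to 4, so that both groups spanned the same range (log2 fold change 0.02, limma adjusted p = 0.843). Both calls were lost after median-of-ratios scaling (limma adjusted p = 0.0578 for Rfx5 and 0.0608 for Rfxank) and after quantile normalization (0.0646 and 0.237). The Rfx5 call was also lost when YKL-05-099 replicate 1 or 3, or vehicle replicate 2 or 3, was left out (limma adjusted p between 0.0695 and 0.0818). Over all alternatives the adjusted p ran from 0.00743 to 0.589 for Rfx5 and from 0.0114 to 0.320 for Rfxank.

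**Figure D1:**
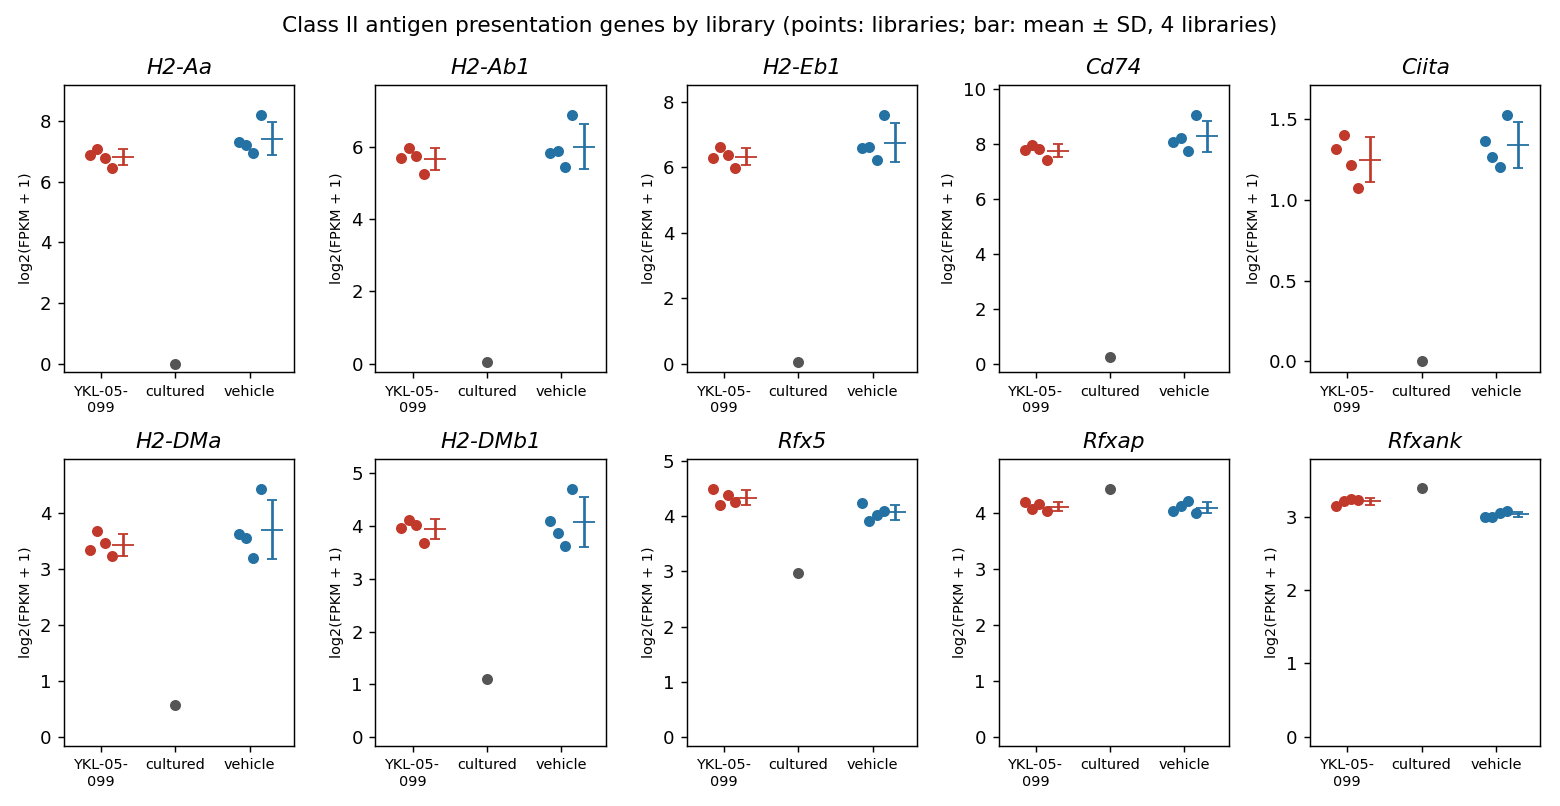
Level of each of the 10 genes by library, as log2(FPKM + 1) on a vertical axis of its own for each gene, with YKL-05-099 in red, culture in grey and vehicle in blue; bars give the mean ± SD of 4 libraries. The cultured point lies at or near 0 for H2-Aa, H2-Ab1, H2-Eb1, Cd74 and Ciita, and vehicle replicate 4 is the highest point for these genes and both H2-DM genes.

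All 10 genes passed the filter of at least 1 FPKM in at least 4 of the 8 mouse libraries. Of the 10, limma called 2 higher (Rfx5 and Rfxank) and 0 lower after YKL-05-099, where 28.0% of all 11788 genes tested were called higher, 15.1% lower and 43.2% either way. The calls over all genes were 3304 higher and 1785 lower, a split that became 2573 and 2332 after median-of-ratios scaling and 2511 and 2411 after quantile normalization. Of the 7 class II genes with Ciita, limma called 0, and 1 of 7, H2-Aa, had an unadjusted p under 0.05. The median log2 fold change was -0.20 over the 10 genes and 0.05 over all genes tested. Levels did not overlap between the groups in 1 of the 10 genes, Rfxank, and in 40.0% of all genes tested.

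The class II values also moved with single vehicle libraries. Without vehicle replicate 4, the log2 fold change was -0.34 for H2-Aa (limma adjusted p = 0.0631), -0.26 for Cd74 (adjusted p = 0.140), -0.15 for H2-Eb1 and -0.05 for H2-Ab1. Without vehicle replicate 3 it was -0.76 for H2-Aa (limma adjusted p = 0.0321) and -0.70 for Cd74 (adjusted p = 0.0391), and both were then called lower. Over all alternatives the adjusted p ran from 0.0321 to 0.583 for H2-Aa and from 0.0391 to 0.721 for Cd74.

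**Figure D2:**
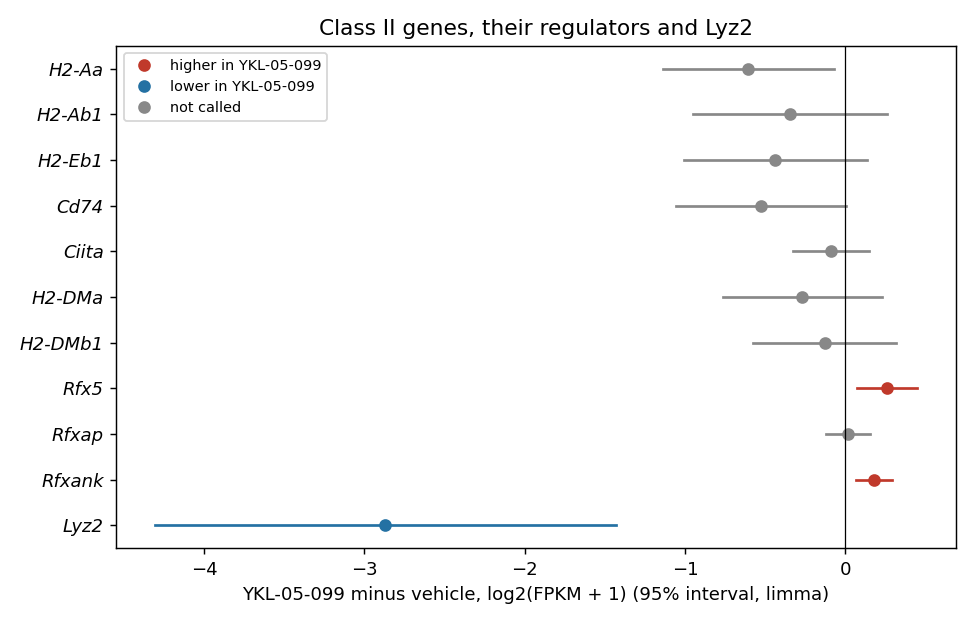
Difference between YKL-05-099 and vehicle in log2(FPKM + 1) for the 10 genes and Lyz2, with the 95% interval from limma; red and blue mark genes called higher and lower, and grey marks genes not called. The interval of H2-Aa ends at -0.07 and those of the other class II genes and Ciita include 0, while that of the macrophage gene Lyz2 runs from -4.31 to -1.43.

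Transcripts of macrophages, cells that express class II themselves, mostly differed between the groups far more than the class II transcripts did. Cd68, given below, did not. Lyz2, the lysozyme gene used as a gauge of macrophage RNA, had 5.27, 30.9, 32.4 and 3.11 FPKM in YKL-05-099 replicates 1 to 4, 0.0237 FPKM in culture, and 109.7, 142, 66.5 and 72.2 FPKM in vehicle replicates 1 to 4. Every YKL-05-099 library lay below every vehicle library, and YKL-05-099 replicates 1 and 4 lay well below replicates 2 and 3. The log2 fold change of Lyz2 was -2.87 (95% interval -4.31 to -1.43, limma adjusted p = 0.00584). In bulk RNA, fewer cells of a type and less RNA per cell cannot be told apart.

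Within the YKL-05-099 libraries Lyz2 varied while the class II genes held a narrow range. The highest YKL-05-099 library exceeded the lowest by 10.4 times in Lyz2, 15.4 times in the complement gene C1qa and 15.7 times in Ctss. This quotient was 8.96 for the leukocyte gene Ptprc and 2.52 for the macrophage marker Csf1r, against 1.48 for Cd74 and 1.54 for H2-Aa. Among vehicle libraries it was 2.13 for Lyz2, 2.32 for Csf1r, 2.47 for Cd74 and 2.41 for H2-Aa. The lowest YKL-05-099 levels were 0.0308 FPKM for Ptprc, 0.284 for Csf1r, 0.355 for Ctss and 0.453 for C1qa, where quotients are less certain. Not every macrophage marker varied as Lyz2 did. Cd68 had 9.23, 15.6, 14.9 and 15.8 FPKM in YKL-05-099 replicates 1 to 4, 10.04 FPKM in culture, and 20.3, 23.1, 16.6 and 13.6 FPKM in vehicle replicates 1 to 4. Its groups overlapped, and its log2 fold change of -0.39 (limma adjusted p = 0.122) was smaller in size than that of Cd74 or H2-Aa. C1qa kept step with Lyz2, at 0.146 to 0.262 times its FPKM in all 8 mouse libraries. Cd74 over C1qa was 168.5, 45.4, 31.9 and 377 in YKL-05-099 replicates 1 to 4, against 11.1, 7.90, 13.8 and 33.4 in vehicle replicates 1 to 4. These quotients covered a 47.7-fold range, with the 2 libraries lowest in Lyz2 and C1qa, YKL-05-099 replicates 1 and 4, at the top. H2-Aa over Csf1r covered a 13.2-fold range, at 154 to 412 after YKL-05-099 and 31.2 to 146 after vehicle. C1qa and Csf1r themselves did not overlap between the groups, so a gene level between them tends to separate in these quotients too. The quotients therefore cannot show a trait of the class II genes, and their share over all genes was not computed.

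Set over Lyz2 in the same library, with 1 FPKM added to both, Cd74 stood at 35.3, 7.92, 6.68 and 41.7 in YKL-05-099 replicates 1 to 4, at 1.16 in culture, and at 2.43, 2.06, 3.21 and 7.29 in vehicle replicates 1 to 4. Only vehicle replicate 4 reached into the YKL-05-099 range. In a two-sided exact permutation test of this quotient, added after the data were seen and taken 1 gene at a time, p was 0.0571 for Cd74, H2-Aa, H2-Ab1 and H2-Eb1. It was 0.0286 for H2-DMa, H2-DMb1 and Ciita, whose quotients did not overlap, and 0.0286 is the smallest p that 4 libraries against 4 allow in this exact test. Lyz2 itself did not overlap between the groups, so a gene level between them tends to separate in this quotient as well. The exact test therefore cannot show a trait of the class II genes, and its share over all genes was not computed.

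The same comparison fitted over all genes, with Lyz2 subtracted on the log2 scale, gave a log2 difference of 2.34 for Cd74 (95% interval 0.59 to 4.10, limma adjusted p = 0.00939), 2.26 for H2-Aa (adjusted p = 0.0124) and 2.78 for Ciita (adjusted p = 0.00283). All 10 genes were called higher relative to Lyz2, and so were 99.1% of all 11787 genes tested. Since each gene carries the spread of Lyz2 itself, the tests share 1 source of error and their p-values are too small. H2-Aa was no longer called when YKL-05-099 replicate 1 or vehicle replicate 2 was left out. With log2(FPKM + 1) of Lyz2 as a covariate, none of the 10 genes was called by limma and none had an unadjusted p under 0.05. In that fit 1216 of all 11788 genes were called, and 3342 had an unadjusted limma p under 0.05. Rfxank had a log2 fold change of 0.19 with the covariate and 0.18 without it, with standard errors of 0.0929 and 0.0510. That of Rfx5 was 0.19 with the covariate and 0.26 without it, with standard errors of 0.150 and 0.0839. In the covariate fit the log2 fold change was -0.39 for H2-Aa (limma adjusted p = 0.583), -0.26 for Cd74 (adjusted p = 0.721), -0.12 for H2-Eb1 and 0.0041 for H2-Ab1, with a standard error of 0.427 for H2-Aa, against 0.238 without the covariate.

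**Figure D3:**
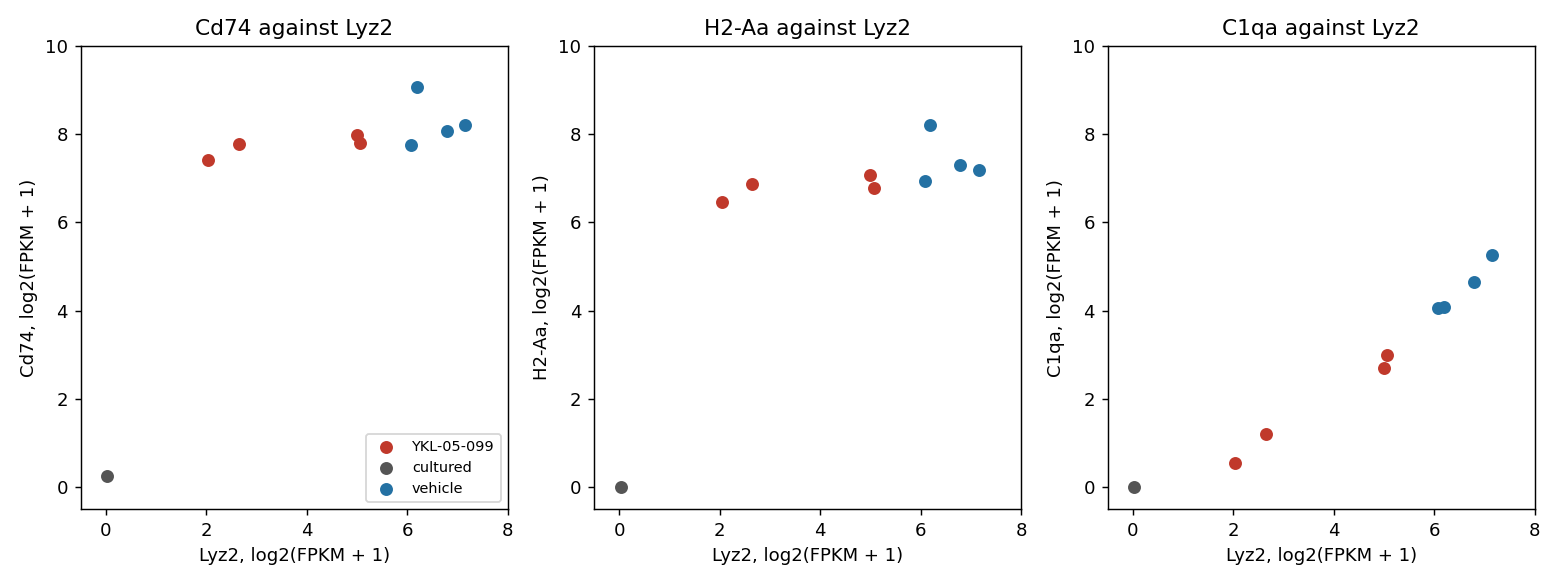
Cd74, H2-Aa and C1qa (vertical axes) against Lyz2 (horizontal axis) in each library, all as log2(FPKM + 1), with YKL-05-099 in red, culture in grey and vehicle in blue. C1qa climbs with Lyz2, whereas the 4 YKL-05-099 points of Cd74 lie between 170.4 and 251 FPKM although Lyz2 runs from 3.11 to 32.4 FPKM among them.

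Markers of the other cells that express class II were low or lower after YKL-05-099. The 15 macrophage markers summed to 21.1 to 82.7 FPKM after YKL-05-099, 10.2 FPKM in culture and 147 to 324 FPKM after vehicle, and 8 of the 9 tested were called lower. Over all 11788 genes tested 15.1% were called lower, a share to set beside each of these marker counts. In culture 10 of the 15 were listed at 0, and Cd68 alone gave 10.04 FPKM of the sum. The 5 pan-leukocyte markers summed to 0.951 to 5.94 FPKM after YKL-05-099, 1.16 FPKM in culture and 11.0 to 24.0 FPKM after vehicle, with all 3 tested called lower. Ptprc, which encodes the CD45 of the sort gate, had 0.0421, 0.173, 0.276 and 0.0308 FPKM in YKL-05-099 replicates 1 to 4, was listed at 0 in culture, and had 0.611, 0.772, 0.346 and 0.353 FPKM in vehicle replicates 1 to 4.

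The 7 dendritic cell markers summed to 6.69 to 7.61 FPKM after YKL-05-099, 17.8 FPKM in culture and 8.73 to 9.62 FPKM after vehicle. Of these, Flt3, Itgax, Xcr1, Clec9a and Cd209a were at or under 0.160 FPKM in every library, and Zbtb46 and Ccr7 were not. Zbtb46 made up most of the sum in the mouse libraries and was present in culture as well, at 6.05 FPKM, where Ccr7 added 11.7 FPKM. The 1 tested dendritic marker, Zbtb46, was called lower (6.68 ± 0.335 FPKM after YKL-05-099 and 8.73 ± 0.351 FPKM after vehicle, SD, n = 4 each, limma adjusted p = 0.00112). The 8 B cell markers summed to 0.628 to 1.44 FPKM after YKL-05-099, 0.481 FPKM in culture and 12.9 to 49.0 FPKM after vehicle. The 2 tested, the immunoglobulin genes Igkc and Ighm, were both called lower, and the B cell surface gene Ms4a1 reached at most 0.0538 FPKM in any library. The 5 T cell markers summed to 0.0265 to 0.242 FPKM after YKL-05-099, 0 FPKM in culture and 0.0310 to 0.325 FPKM after vehicle, and the 5 endothelial markers to 5.79 to 7.52 FPKM after YKL-05-099, 4.30 FPKM in culture and 5.65 to 8.82 FPKM after vehicle. Red cell transcripts, 5 genes that were all called lower, summed to 1.45 to 92.8 FPKM after YKL-05-099, 0.188 FPKM in culture and 244 to 1486 FPKM after vehicle. The marker calls stand beside the 15.1% called lower over all genes tested. The part of these cells in the class II values was not tested.

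The cultured library showed the largest differences of the class II genes. A gene counted as apart in culture when it fell beyond all 8 mouse libraries and differed by 2 log2 units or more from the mean of vehicle, a rule of size with no test. By this rule 6 of the 10 genes were lower in culture and 0 higher, where 3.06% of 12296 genes were lower and 2.08% higher. The difference from the vehicle mean in log2(FPKM + 1) was -8.03 for Cd74, -7.41 for H2-Aa, -6.69 for H2-Eb1, -5.97 for H2-Ab1, -3.13 for H2-DMa and -2.97 for H2-DMb1. Ciita was listed at 0 in culture, but its level in the mice was too low to move by 2 log2 units on this scale, and with a pseudocount of 0.1 in place of 1 it counted as lower too. Per length, the RFX genes were the 3 highest of the 10 in culture, and the class II chains and Ciita were the 4 lowest. Lyz2 and 10 of the macrophage markers were at or near 0 in the same library, and their part in these differences was not tested.

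Proportions among the class II genes varied least for Cd74 and H2-Eb1 over H2-Aa. Cd74 was 1.70 to 2.03 times H2-Aa in FPKM over all 8, H2-Eb1 was 0.603 to 0.752 times and H2-Ab1 0.346 to 0.477 times H2-Aa. H2-Ab1 over H2-Aa was 0.425 to 0.477 after YKL-05-099 and 0.346 to 0.400 after vehicle, without overlap. H2-DMa over H2-Aa was 0.0780 to 0.0958 after YKL-05-099 and 0.0670 to 0.0735 after vehicle. H2-DMb1 over H2-Aa was 0.122 to 0.139 after YKL-05-099 and 0.0862 to 0.103 after vehicle, and Ciita over H2-Aa was 0.0120 to 0.0128 after YKL-05-099 and 0.00645 to 0.0107 after vehicle. These 3 did not overlap either, whereas Cd74 and H2-Eb1 over H2-Aa did. The same quotient over H2-Aa, computed for all 11787 other tested genes, did not overlap in 34.3% of them, and in 34.1% it was higher after YKL-05-099.

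Vehicle replicate 4 was the highest vehicle library in all 7 of the class II genes and Ciita followed here, and was below the mean of the other vehicle libraries in Lyz2, C1qa and Ctss. Its Lyz2 and C1qa were not the lowest, since vehicle replicate 3 had less of both. Its level over the mean of the other 3 vehicle libraries was 2.26 for H2-Ab1, 2.18 for H2-Eb1, 2.07 for H2-Aa, 2.06 for Cd74, 2.05 for H2-DMa, 1.84 for H2-DMb1 and 1.32 for Ciita. The same quotient was 0.681 for Lyz2, 0.622 for C1qa and 0.487 for Ctss. Over all genes tested its median was 0.998, and 51 genes (0.433%) reached the quotient of Cd74.

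Of the other genes of the pathway, 26 of 27 were in the table and 19 passed the filter, of which limma called 4 higher and 5 lower after YKL-05-099 and left 10 uncalled, with a median log2 fold change of -0.03. The 9 calls among 19 genes stand beside the 43.2% called over all genes tested, a share close to theirs. With Lyz2 or the macrophage list as a covariate 1 of the 19, Ifi30, was called. Over all 11788 genes 1216 were called with Lyz2 and 788 with the macrophage list. The remaining class II genes were close to silent. H2-DMb2, H2-Oa, H2-Ob and H2-Eb2 did not exceed 0.363 FPKM in any library and were listed at 0 in culture.

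Among the genes of endosomal processing, Ctss moved with the macrophage markers. It encodes cathepsin S, the protease that cuts the invariant chain in macrophages, dendritic cells and B cells, and had 0.676, 4.07, 5.58 and 0.355 FPKM in YKL-05-099 replicates 1 to 4, was listed at 0 in culture, and had 16.4, 24.6, 8.69 and 8.07 FPKM in vehicle replicates 1 to 4. Its groups did not overlap, and the same YKL-05-099 replicates, 1 and 4, were low as for Lyz2 (log2 fold change -2.25, limma adjusted p = 0.00704). The log2 fold change of Ctss was -0.012 with Lyz2 as a covariate and 0.36 with the macrophage list, and it was called in neither fit. Lgmn, the asparaginyl endopeptidase, was lower at 93.9 ± 5.99 FPKM after YKL-05-099, with 119 ± 6.05 FPKM after vehicle (SD, n = 4 each, log2 fold change -0.34, limma adjusted p = 0.00108), and stood at 91.9 FPKM in culture. Ctsh was also called lower (-0.38, limma adjusted p = 0.00571), and Ctsb by a small margin (-0.15, limma adjusted p = 0.0416) that 11 of 20 alternatives did not keep. Ctsl, the cathepsin that cuts the invariant chain in thymic epithelium, and Ctsd were not called. Ifi30, the interferon-inducible thiol reductase of the endosome, was higher at 49.6 ± 1.91 FPKM after YKL-05-099, against 36.8 ± 2.18 FPKM after vehicle (SD, n = 4 each), and had 46.04 FPKM in culture. Its call (log2 fold change 0.42, limma adjusted p = 0.000207) was kept in all 20 alternatives, with an adjusted p of at most 0.0204.

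Of the genes from interferon gamma to Ciita, 2 of 7 were called higher and 0 lower, close to the 28.0% called higher over all genes tested. Irf1, a transcription factor at the interferon-responsive Ciita promoter, had 70.02, 58.7, 57.4 and 54.7 FPKM in YKL-05-099 replicates 1 to 4, 22.4 FPKM in culture, and 40.3, 30.2, 29.0 and 41.6 FPKM in vehicle replicates 1 to 4. Every YKL-05-099 library exceeded every vehicle library (log2 fold change 0.77, limma adjusted p = 0.00101). Jak2 was higher by 0.14 on the log2 scale (limma adjusted p = 0.0422), a call that 12 of 20 alternatives did not keep, median-of-ratios scaling and quantile normalization among them. Ifngr1, Ifngr2, Jak1 and Irf2 were not called. Of the promoter factors, Nfyb, a subunit of NF-Y, was lower by a log2 fold change of -0.21 (limma adjusted p = 0.0207), a call lost without YKL-05-099 replicate 1, and Nfya, Nfyc and Creb1 were not called. March8, a ubiquitin ligase that removes class II from the surface, was higher at 28.7 ± 1.19 FPKM after YKL-05-099, against 24.6 ± 0.819 FPKM after vehicle (SD, n = 4 each, limma adjusted p = 0.00441). March1 and Cd83 stayed under 0.5 FPKM in every library and did not pass the filter. In the fit without the filter March1 was called lower after YKL-05-099 (log2 fold change -0.31, limma adjusted p = 0.0175). Its level was 0 to 0.0568 FPKM after YKL-05-099 and 0.162 to 0.452 FPKM after vehicle. Cd83 was not called in that fit (limma adjusted p = 0.439). With Lyz2 or the macrophage list as a covariate none of Irf1, Lgmn, Ctsh, March8, Jak2 and Nfyb was called, and standard errors were larger. The log2 fold change with Lyz2 and with the macrophage list was 0.70 and 0.66 for Irf1, 0.19 and 0.19 for March8 (0.21 without a covariate), 0.17 and 0.15 for Jak2, and -0.24 and -0.24 for Nfyb. It was -0.25 and -0.24 for Lgmn and -0.32 and -0.24 for Ctsh, smaller in size than without a covariate.

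**Figure D4:**
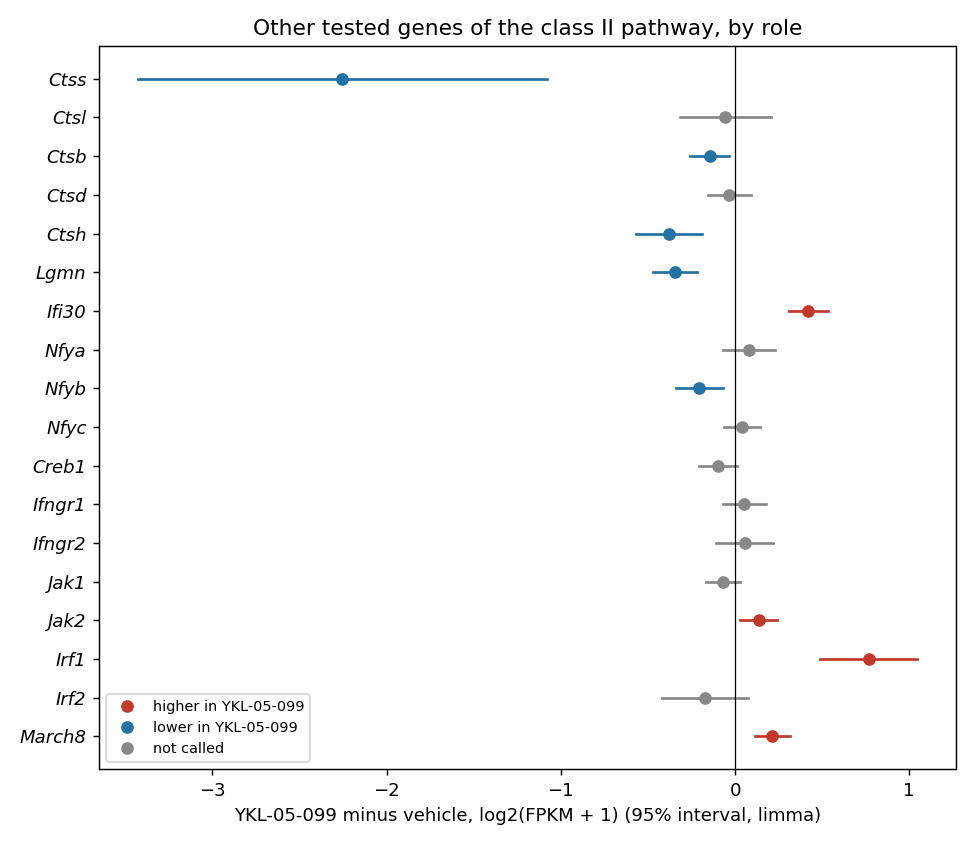
Difference between YKL-05-099 and vehicle in log2(FPKM + 1) for the other tested genes of the pathway that are reported here, ordered by role, with the 95% interval from limma; red and blue mark genes called higher and lower, and grey marks genes not called. Ctss lies far to the left at -2.25, Irf1 farthest to the right at 0.77.

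H2-Aa, H2-Ab1, H2-Eb1, H2-DMa and H2-DMb1 lie together on chromosome 17 in the deposited table (GRCm38, 34135182 to 34316199), with Cd74, Ciita and the RFX genes on other chromosomes. This 181 kb interval holds 15 genes of the table, and 4 others than the class II members were tested, all genes of peptide supply to MHC class I. Tap1, a subunit of the peptide transporter, rose (log2 fold change 0.70, limma adjusted p = 5.36e-05), and its call was kept in all 20 alternatives. Psmb8, an immunoproteasome subunit, was called higher (0.57, limma adjusted p = 0.0123). Its call was kept in 17 of 20 alternatives and lost without the filter and with Lyz2 or the macrophage list as a covariate. Tap2 was called higher as well (0.28, limma adjusted p = 0.0383), a call that 13 of 20 alternatives did not keep. Psmb9 was not called (0.61, limma adjusted p = 0.0582). These 3 calls among 4 genes stand beside the 28.0% called higher over all genes tested. Psmb9 shared with the class II genes the low value in culture, 0.976 FPKM, and a high value in vehicle replicate 4, 2.24 times the mean of the other 3 vehicle libraries. That quotient was 1.65 for Psmb8, 1.32 for Tap2 and 1.03 for Tap1.

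The genes whose pattern was most like that of Cd74 were sought by the Euclidean distance of log2(FPKM + 1), centred on the mean of the mouse libraries, among 11788 genes. Over all 9 libraries H2-Aa was nearest to Cd74 (distance 0.70), and outside the 10 genes the nearest were Fos (0.98), Igfbp2 (1.75), Cst12 (1.95), Fxyd1 (2.00) and Igfbp5 (2.21). The same 5 genes were nearest to H2-Aa, at distances of 1.35 to 1.71, and the large difference between culture and mice carries most of this likeness. Over the 8 mouse libraries alone, an alternative added after the data were seen, H2-Eb1 (0.20), H2-Aa (0.23), H2-Ab1 (0.31) and H2-DMa (0.43) were the 4 nearest to Cd74, and Zfp36, at 0.44, was the nearest gene outside the 10. H2-DMb1 ranked 8 and Ciita 163 in that order, and Rfxap, Rfxank and Rfx5 ranked 5881, 6962 and 9007 of 11788. This distance also depends on the size of the differences, which the added 1 FPKM shrinks for a gene as low as Ciita.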

How the data were processed

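RNA of 9 libraries was measured by poly(A)-selected, stranded paired-end sequencing, per the labels. The deposited values are FPKM per gene, computed by the authors. The submitters' processing notes name bcl2fastq 2.19 and GRCm38; the sources used here name no aligner or quantifier. Of 48302 rows, 65 with a repeated identifier and 7 with a failed estimate were left out. FPKM values are not counts, and the depth is an approximation from the smallest nonzero values among 5751 single-transcript genes of 2 kb or more.

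YKL-05-099 and vehicle were compared with limma 3.58.1 (R 4.3.3, mean-variance trend) on log2(FPKM + 1) over genes with at least 1 FPKM in at least 4 of the 8 mouse libraries, with Benjamini-Hochberg adjustment over 11788 genes and calls under 0.05. Alternatives were other pseudocounts, filters and scalings, limma without the trend, all 9 libraries, a replicate block, a macrophage covariate and leaving out each library. The functions were tested on simulated data. The genes, lists, tests and alternatives were chosen with earlier results of these data known. Named genes were the 10 class II genes, the pathway and marker lists, and the nearest genes by distance; the neighbours on chromosome 17 and single genes described for a high or low value were named after their values were seen. Some genes of these lists are not reported here.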

Additional observations from a re-analysis of the deposited data

Results flagged for a closer look

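In 58 groups of 4 libraries examined among the class II genes, the other pathway genes and Lyz2, 3 had 1 library far from the others by Dixon's gap over range, where chance marks about 1 in 20 groups. Ctsd was lowest in YKL-05-099 replicate 1, at 201 FPKM, with a gap of 0.931 of the group's range. Vehicle replicate 4 was the highest vehicle library in the other 2, with a gap of 0.858 for Nfyb and 0.951 for Ifngr2. The cause was not tested.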

How the results depend on the processing

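The 11788 tested genes gave 5089 calls, and 18 of 20 alternatives stayed within 1.5 times of this. With Lyz2 as a covariate 1216 genes were called and with the macrophage list 788, which goes with a larger median standard error (0.120 and 0.129, against 0.0697). Of the 10 class II genes 2 were called. The count was 0 with the Lyz2 covariate, the macrophage covariate, median-of-ratios scaling and quantile normalization, with 0, 0, 4 and 3 of the 10 at an unadjusted limma p under 0.05, and it was 1 without the filter. Leaving out 1 library gave 1 to 3 calls, and 4226 to 5533 over all genes. The sign turned with the Lyz2 covariate for H2-Ab1 (0.0041), H2-DMb1 (0.089) and Ciita (0.026), and after median-of-ratios scaling (-0.031) and quantile normalization (-0.050) for Rfxap. It also turned when a library was left out for H2-DMb1 (-0.28 to 0.083) and Rfxap (-0.014 to 0.054), none of them called. In culture 632 genes were apart, 1238 with a pseudocount of 0.1 and 2480 at 1 log2 unit. Relative to Lyz2, 9 to 10 of the 10 genes were called in every alternative. Libraries of the same replicate number in YKL-05-099 and vehicle correlated at -0.018, 0.133, -0.047 and 0.172 in their deviations. Those of different number correlated at -0.266 to 0.158, and these values do not settle whether the numbers pair the libraries. With the replicate block 4830 genes and 2 of the 10 were called, and 11675 genes relative to Lyz2. Depth is only approximate, so values under about 0.1 FPKM have no interval.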
